A study of Mus musculus with 6 samples.

Results

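The regions described here are the ATRX peaks of DNA methyltransferase knockout cells that no other ATRX or DAXX list of the series contained. They were chosen from the peak list labelled TKO ATRX by leaving out every peak that overlapped a WT ATRX, WT DAXX or TKO DAXX peak by 1 bp or more. The rule kept 1530 of the 1650 TKO ATRX peaks (92.7%), out of 7165 peaks in all 6 lists of the series. They are called TKO-only ATRX peaks below. Since the peak lists themselves chose them, their absence from the other lists is a description and no result.

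The lists come from chromatin immunoprecipitation and sequencing of mouse embryonic stem cells, with 1 library per group. WT cells are the J1 line, an established mouse embryonic stem cell line, and TKO cells are embryonic stem cells in which the DNA methyltransferases were knocked out. Both were grown in 2i medium for embryonic stem cells, in which CHIR99021 (3 µM) inhibits GSK3 and PD0325901 (1 µM) inhibits MEK. Chromatin was fixed in 4% paraformaldehyde for 10 min and precipitated with antibody SC-15408 against ATRX, antibody SC-7152 against DAXX or rabbit IgG. How many clones the TKO cells represent is not given in the labels. The files hold no DNA methylation and no expression values, so neither the loss of methylation nor the cell type could be checked against markers. The read depth of the libraries is unknown from the files, so absence of a region from a list is no evidence that the protein was absent from it.

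ATRX is a chromatin remodeller of the SWI/SNF family. With its partner DAXX, a histone chaperone, it places the histone variant H3.3 at telomeres, pericentromeric repeats and other repetitive DNA. In embryonic stem cells the pair is known for its part in silent chromatin marked by trimethylated H3K9, and the series asked whether it acts at repetitive DNA when DNA methylation is lost. DNA methylation is itself a main silencing mark of repeats.

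The labels of the lists used by the rule are not all independent. The WT ATRX and TKO DAXX lists shared 750 peaks with the same start and end. The rule uses both lists together, so an exchange of these 2 labels would leave the same 1530 peaks. Without the WT ATRX list the rule kept 1535 peaks, with the WT lists alone it kept 1590, and with WT DAXX as the only other list it kept 1635. The median width of the kept peaks was 344 bp with all 3 lists and between 344 and 347 bp in these other versions.

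Of the 120 TKO ATRX peaks that the rule left out, 107 met the TKO DAXX list, 54 the WT ATRX list and 15 the WT DAXX list. An overlap with TKO DAXX alone was the reason for 60 of them, so those 60 peaks were in neither WT list as labelled. If the labels of WT ATRX and TKO DAXX were exchanged, these 60 peaks would instead be shared with WT ATRX alone. A peak in all 3 other lists was found for 7, and 46 overlapped one of the identical peaks. The overlaps were long, with a median of 411.5 bp and a minimum of 156 bp. The shortest were all with TKO DAXX peaks, at chr4:63263254-63263409 (156 bp, the whole peak), at chr5:145377323-145377552 (156 bp) and at chrY:2652188-2652353 (166 bp, the whole peak). The TKO-only peaks nearest to another list lay 23 bp from a WT DAXX peak on chromosome 9, and 27 bp and 28 bp from TKO DAXX peaks on chromosomes 3 and 12.

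The TKO-only ATRX peaks scored lower and were shorter than the TKO ATRX peaks that the rule left out. The score is the authors' value per peak and appears to be the caller's p-value as −log10 multiplied by 10, so a score of 70 would stand for a p-value of 1e-07. Scores ran from 70 to 510.11 with a median of 79.54 (95% interval 79.13 to 80.54), and 780 of the 1530 peaks (51.0%) scored under 80. The lowest were 2 peaks at exactly 70, chr1:12510348-12510710 and chr5:3283051-3283413, and 1 at 70.01, chr5:64461374-64461700. The 120 left-out peaks had a median score of 106 (95.6 to 131) and reached 1153. The median score was 80.5 over all TKO ATRX peaks, 81.4 in the WT ATRX list and 82.9 in the TKO DAXX list. In each of these lists the median thus lay near the lowest score of 70 or 70.01. A score depends on the depth and control of its own call, so it ranks peaks within a list only. All intervals here cover counting over the peaks of 1 library and no replicate error, and none of the differences between peak groups was tested.

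The share of TKO ATRX peaks that stood outside the other lists fell from step to step of the score. It was 97.4% between 70 and 80 (780 of 801, exact 95% interval 96.0 to 98.4) and 94.4% between 80 and 100 (524 of 555, 92.2 to 96.2). It was 87.2% between 100 and 150 (191 of 219, 82.1 to 91.3), 64.1% between 150 and 200 (25 of 39, 47.2 to 78.8) and 42.1% between 200 and 300 (8 of 19, 20.3 to 66.5). At 300 or more it was 11.8% (2 of 17, 1.46 to 36.4). Among the 10 highest-scoring TKO ATRX peaks 1 was TKO-only, among the 50 highest 16 were, and among the 100 highest 54 were. The strongest ATRX regions of the TKO cells were thus mostly present in another list, and the bulk of the TKO-only peaks lay near the authors' threshold.

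**Figure D1:**
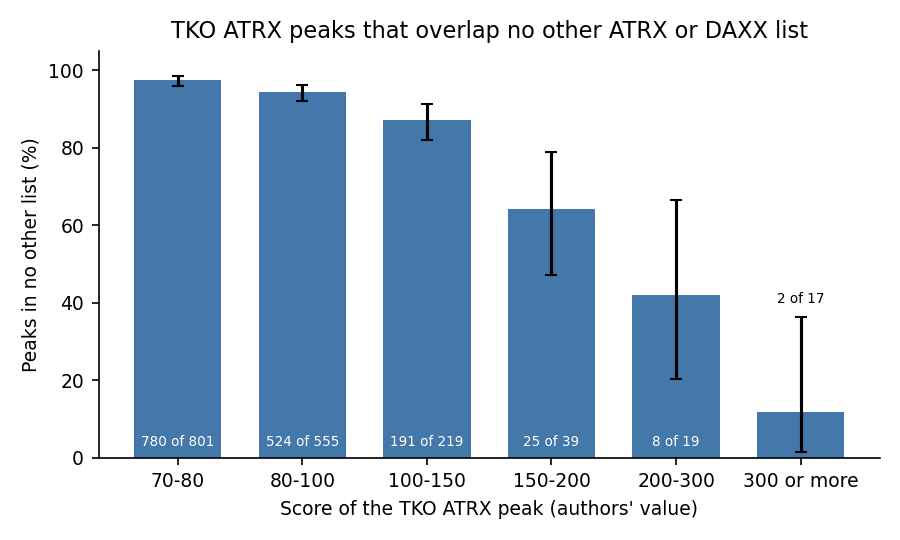
Share (%) of TKO ATRX peaks that overlap no WT ATRX, WT DAXX or TKO DAXX peak, by score class of the TKO ATRX peak. Bars give the share, whiskers the exact 95% interval over peaks of 1 library, and the numbers the peaks counted; the share falls from 97.4% at scores of 70 to 80 to 11.8% at 300 or more.

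The highest TKO-only ATRX peak was a 1069 bp region on chromosome 13 from 59240260 to 59241328 with a score of 510.11, the 5th highest of all TKO ATRX peaks. The nearest peak of another ATRX or DAXX list was 122 kb away. The 2nd was a 1792 bp region on chromosome 1 from 38865631 to 38867422 with a score of 401.74, ranked 12th in the whole list and also the widest TKO-only peak. No peak of the other 3 lists lay within 678 kb of it. The next score was 256.36, well below these 2.

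The 13 regions that followed scored between 177.6 and 256.36. On chromosome 1 a 651 bp peak from 194490821 to 194491471 (score 256.36) lay 4.3 kb from a stronger TKO ATRX peak that also overlapped TKO DAXX, and it was 5.74 kb from that DAXX peak. Chromosome 13 held 2 more of them, from 50000862 to 50001414 (239.35) and from 60543637 to 60544160 (223.21). With the top region, chromosome 13 thus held 3 of the 15 highest-scoring TKO-only peaks, in the stretch from 50000862 to 60544160, and chromosome 4 also held 3. Of all TKO-only peaks, chromosome 13 held 5.36% and chromosome 4 held 7.39%. Chromosome 2 held a peak from 49103347 to 49104155 (239.23) and one from 102743425 to 102744084 (182.41). On chromosome 4 there were peaks at chr4:58785401-58785854 (229.07), chr4:7092964-7093127 (209.33) and chr4:128790176-128790744 (188.25). The other 5 were chr19:58648423-58648960 (217.78), chr9:123841006-123841969 (200.16), chr10:120294468-120295184 (188.25), chr12:70820208-70820769 (187.63) and chr17:49145570-49146044 (177.6). Of these 15 regions, 12 lay more than 50 kb from any peak of the other ATRX and DAXX lists. Over all TKO-only peaks, 316 of 1530 (20.7%) had such a peak within 50 kb, so the 15 were much like the whole set in this. Of the 15, 0 overlapped an IgG peak, which their choice required.

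In width too the TKO-only peaks lay below the left-out peaks. A wider peak meets a rule of 1 bp overlap more readily, and the part of the rule in this difference was not tested. Their median width was 344 bp (340 to 348) with quartiles of 298 and 415 bp, and 14 of the 1530 peaks (0.915%) were 1 kb or wider. The left-out peaks had a median of 567.5 bp (486 to 654), and 25 of 120 (20.8%) were 1 kb or wider. The order was the same within broad score classes, which do not equalise score. At 100 or more, 191 of the 226 TKO-only peaks scored between 100 and 150, while left-out peaks reached 1153. Below a score of 100 the medians were 341 bp for 1304 TKO-only peaks (336 to 345) and 409.5 bp for 52 left-out peaks (357 to 486). At 100 or more they were 409 bp for 226 TKO-only peaks (389 to 438) and 703.5 bp for 68 left-out peaks (602 to 920). The medians of the whole WT ATRX and TKO DAXX lists were lower than that of the TKO-only peaks, at 325 and 328 bp, and over all TKO ATRX peaks the median was 348 bp.

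The widest TKO-only peaks after the chromosome 1 region did not all score high. Chromosome 4 held a 1772 bp peak from 145713334 to 145715105 with a score of 73.02 and a 1438 bp peak from 146642085 to 146643522 with 84.51. Chromosome 1 held a 1617 bp peak from 186638064 to 186639680 with 162.02 and a 1493 bp peak from 173010711 to 173012203 with 88.67. The 2 on chromosome 4 lay 18.2 kb and 10.6 kb from a TKO IgG peak. The 3 on chromosome 1 were all at least 503 kb from any IgG peak.

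A small group of very short peaks scored high. Of the TKO-only peaks, 33 (2.16%) were under 200 bp, against 2.24% of all TKO ATRX peaks, and their median score was 94.97 (88.02 to 137.99) against 79.29 (79.13 to 80.25) for the other 1497. A score of 100 or more was reached by 15 of the 33 (45.5%, 28.1 to 63.6) and by 211 of the 1497 (14.1%, 12.4 to 16.0). The highest of them was the 164 bp peak on chromosome 4 at 7092964 (209.33). Next came 4 peaks with the same score of 172.75, of which 3 were 175 bp wide, at chr2:176942400-176942574, chrX:89063403-89063577 and chrX:118558569-118558743, and 1 was 147 bp wide, at chr13:3016918-3017064. Widths under 200 bp were also found in 3.40% of the WT ATRX, 3.51% of the WT DAXX, 2.54% of the TKO DAXX, 5.11% of the TKO IgG and 23.1% of the WT IgG peaks. Both under 200 bp and at a score of 100 or more were 0.980% of the TKO-only peaks, 1.74% of the WT ATRX, 1.42% of the TKO DAXX, 0.946% of the TKO IgG and 4.48% of the WT IgG peaks. In the WT DAXX list 0 of 570 peaks were both. The lists began at different lowest scores, so a score of 100 is not the same measure in each.

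Many TKO-only peaks had a score in common. A score shared with at least 1 other TKO-only peak was found for 796 of the 1530, and the most frequent, 70.72 and 70.78, belonged to 43 and 38 peaks on 18 and 16 chromosomes. Those peaks differed in width, with 31 widths from 243 to 358 bp at 70.72 and 31 widths from 239 to 464 bp at 70.78. Both width and score were shared with another peak by 301 of the 1530, so most pairs of width and score occurred once. Along one series, chosen after its values were seen, the score fell as the width grew. It was 73.35 for 5 peaks of 287 bp, 73.01 for 8 of 289 bp, 72.33 for 4 of 293 bp, 71.17 for 4 of 300 bp and 70.2 for 8 of 306 bp, where the series met the authors' threshold. In this series width and score moved together, which the peaks at 70.72 and 70.78 did not show.

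**Figure D2:**
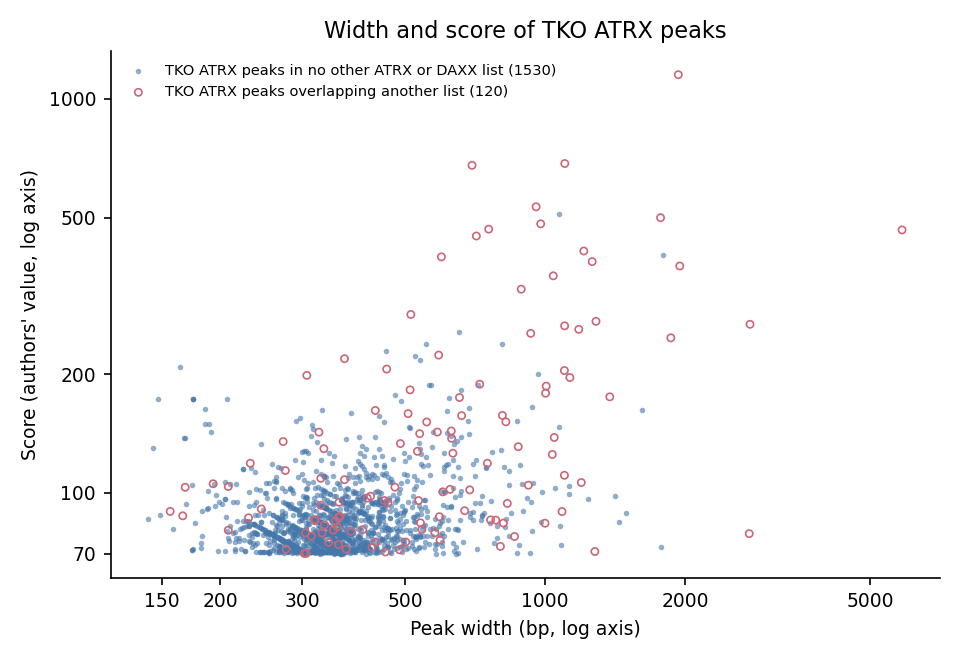
Width (bp, log axis) against score (authors' value, log axis) of each TKO ATRX peak: 1530 in no other ATRX or DAXX list (filled) and 120 overlapping another list (open circles). The filled points crowd towards the threshold of 70, with a median score of 79.54 and a median width of 344 bp, a few high-scoring ones are under 200 bp, and rows of filled points fall from left to right just above the threshold.

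The distances to the 3 ATRX and DAXX lists are a description, since the rule used these lists and removed the peaks that overlapped them. The median distance to the nearest WT ATRX, WT DAXX or TKO DAXX peak was 190 kb, with quartiles of 64.0 and 555 kb. To the TKO DAXX list the median was 363 kb, to WT ATRX 414 kb and to the shorter WT DAXX list 1372 kb. A peak of the 3 lists lay within 1 kb of 21 TKO-only peaks (1.37%, 0.852 to 2.09), within 10 kb of 88 (5.75%, 4.64 to 7.04) and within 50 kb of 316 (20.7%, 18.7 to 22.8). Over all 1650 TKO ATRX peaks, overlaps included, these shares were 8.55%, 12.6% and 26.4%. Distances depend on the length of each list. Within 10 kb the share was 3.08% when the WT lists alone served as the other lists, 4.43% without the WT ATRX list and 0.795% with WT DAXX alone.

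Of the 21 peaks with such a neighbour within 1 kb, 18 scored under 100, a share near that of all TKO-only peaks (1304 of 1530). The strongest was the 964 bp peak on chromosome 9 from 123841006 to 123841969 (200.16), at the distal end of the listed span of that chromosome. It lay 880 bp from a left-out TKO ATRX peak that overlapped all 3 other lists and scored 482.03. A further TKO-only peak there, from 123832728 to 123834141 (98.08), lay 23 bp from a WT DAXX peak. On chromosome 3 a 202 bp peak from 154135606 to 154135807 (93.44) lay 66 bp from a left-out TKO ATRX peak, and on chromosome 12 a 1128 bp peak from 3238107 to 3239234 (99.11) lay 910 bp from one. These peaks are counted as TKO-only by the rule, although they flank regions that are not. Within 10 kb of a left-out TKO ATRX peak lay 11 TKO-only peaks (0.719%). The left-out peaks number 120, and the longer WT DAXX list of 570 peaks also had 11 TKO-only peaks within 10 kb.

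**Figure D3:**
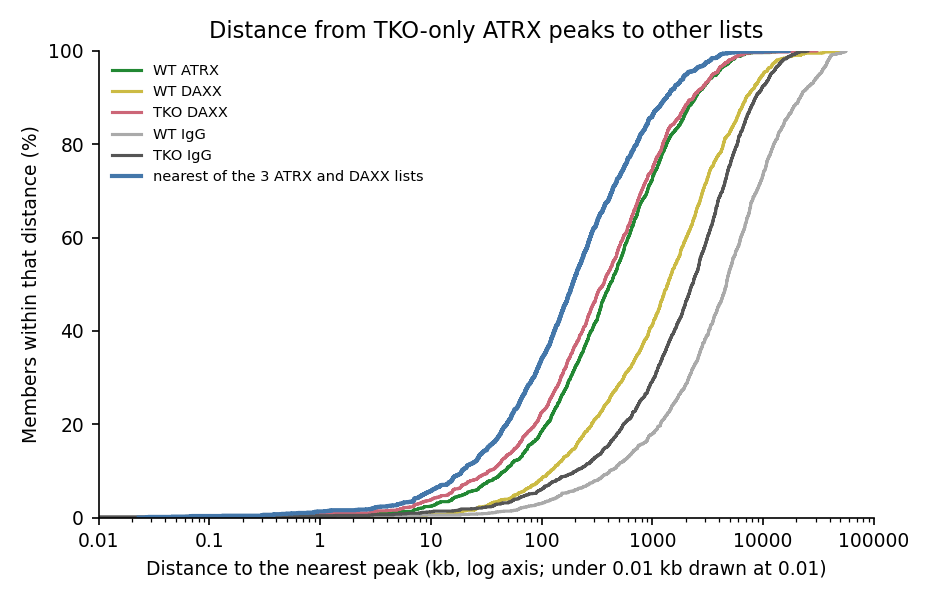
Cumulative share (%) of the 1530 TKO-only ATRX peaks by distance (kb, log axis) to the nearest peak of each other list and to the nearest of the 3 ATRX and DAXX lists. The median for the nearest of the 3 lists is 190 kb. By median the IgG lists are farthest away, at 4671 kb (WT) and 2297 kb (TKO). At short range this order does not hold: within 10 kb, 24 peaks had an IgG peak of either line and 11 a WT DAXX peak.

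Overlap with the IgG background was rare. An IgG peak of either line overlapped 4 of the 1530 TKO-only peaks (0.261%, 0.0713 to 0.668), against 0.303% of all TKO ATRX peaks and 1 of the 120 left-out peaks (0.833%, 0.0211 to 4.56). The WT IgG list overlapped 2 of them and the TKO IgG list 3. All 4 scored between 77.85 and 87.82, and of the 226 TKO-only peaks with a score of 100 or more 0 overlapped IgG, which allows a share of up to 1.33%. Whether IgG served as the control of the ATRX call is not stated in the labels, and the part of the calling in this low overlap was not tested.

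The 4 regions differed in the IgG peaks that they overlapped. On chromosome 6 the 759 bp peak from 47712616 to 47713374 (83.71) lay inside a WT IgG peak with 259 tags (reads) and overlapped 704 bp of a TKO IgG peak with 306 tags. On chromosome 8 the 836 bp peak from 56203914 to 56204749 (77.85) lay inside a 5249 bp TKO IgG peak with 1526 tags, at a fold enrichment of 6.55 over the caller's background by the authors' table. On chromosome 4 the 364 bp peak from 146128447 to 146128810 (79.14) lay inside a 3509 bp TKO IgG peak with 313 tags. On chromosome 5 the 326 bp peak from 106279668 to 106279993 (87.82) shared 295 bp with a WT IgG peak of 69 tags, and the nearest TKO IgG peak was 1952 kb away. Only the chromosome 6 region was thus called in the IgG lists of both lines. The order by fold enrichment was another one. It was highest for the chromosome 5 IgG peak, at 68.25, against 24.73 (WT) and 11.66 (TKO) on chromosome 6 and 9.68 on chromosome 4. The tag counts are not scaled to peak width or to the size of the library.

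TKO-only ATRX peaks were spread over all autosomes. Their number per 10 Mb of the span covered by the peak lists was between 4.52 on chromosome 1 and 8.78 on chromosome 6, with a median of 6.23 over the 19 autosomes. Chromosome 6 held 131 of them (8.56%, 7.21 to 10.1), against 8.3% of all TKO ATRX peaks, 7.5% of the WT ATRX peaks and 5.87% of the TKO DAXX peaks. Chromosomes 8 and 11, which held 12.4% and 19.6% of the TKO DAXX list, held 6.21% (5.05 to 7.54) and 5.69% (4.58 to 6.97) of the TKO-only ATRX peaks. On chromosome 9, 15 of 98 TKO ATRX peaks were left out, and on chromosome 18 8 of 50, while on chromosome 14 1 of 63 was. Over all chromosomes it was 120 of 1650. Of the 15 on chromosome 9, 5 lay in a single run from 2999987 to 3030394.

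The X chromosome was sparse. It held 17 TKO-only peaks (1.11%, 0.649 to 1.77; 1.15% of all TKO ATRX peaks), or 1.02 per 10 Mb. The share of peaks on X was also low in the WT ATRX list (0.833%), the WT DAXX list (1.05%) and the TKO DAXX list (1.03%), and was 5.01% in the TKO IgG list. Among the 17, 4 were under 200 bp (23.5%, 6.81 to 49.9) and 8 scored 100 or more (47.1%, 23.0 to 72.2), against 2.16% and 14.8% of all TKO-only peaks. Chromosome Y held 0 of 1530, which allows a share of up to 0.196%, and its listed span was 2.90 Mb.

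The distal ends of chromosomes held a smaller share of the TKO-only than of the left-out peaks. The last 10 Mb of each chromosome's listed span held 217 of 1530 TKO-only peaks (14.2%, 12.5 to 16.0) and 35 of 120 left-out peaks (29.2%, 21.2 to 38.2). Over all TKO ATRX peaks it was 15.3% (13.6 to 17.1), close to the TKO-only share. Within broad score classes, which do not equalise score, the values were 14.1% and 26.9% below 100, and 14.6% and 30.9% at 100 or more. The same share was 15.2% in the WT ATRX list and was reached by 410 of 2046 peaks in the TKO DAXX list. The first 10 Mb, the centromere-proximal end of mouse chromosomes, held 6.86% of the TKO-only peaks (5.65 to 8.25) and 11.7% of the left-out peaks (6.53 to 18.8), intervals that overlap, and 7.21% of all TKO ATRX peaks. In the TKO IgG list this share was 23.9%. Of the 14 left-out peaks in the first 10 Mb, 5 formed the run on chromosome 9.

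**Figure D4:**
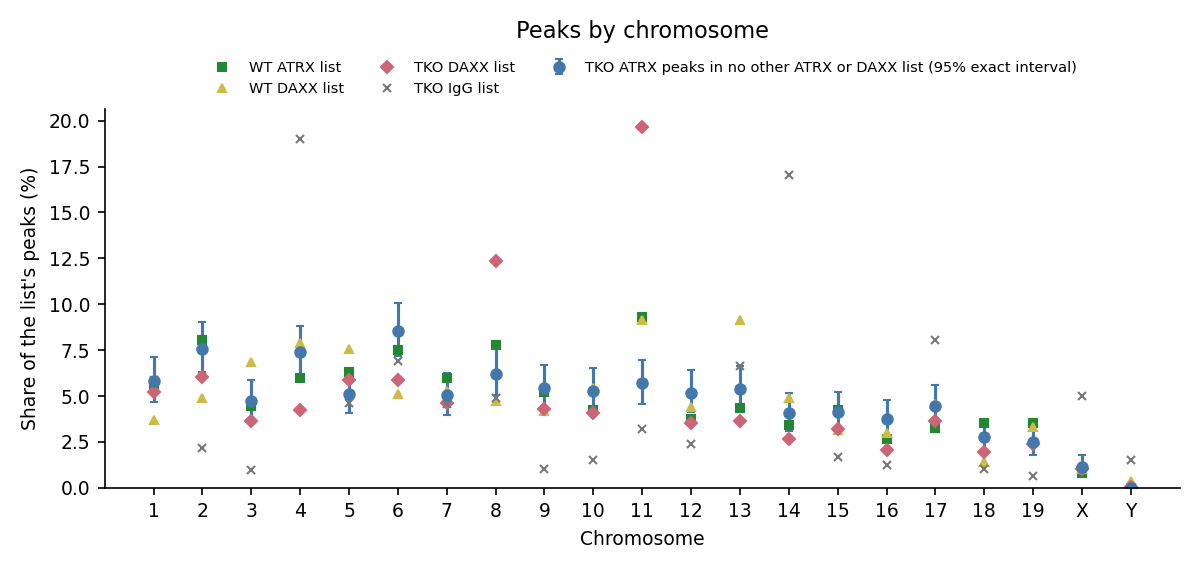
Share (%) of each list's peaks on each chromosome. Circles with whiskers are the 1530 TKO-only ATRX peaks with exact 95% intervals, and the other symbols are the WT ATRX, WT DAXX, TKO DAXX and TKO IgG lists; chromosome 6 is highest for the TKO-only peaks at 8.56%, and chromosome X holds 1.11%.

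Neighbouring TKO-only peaks were rarely close together. The median gap between neighbours on a chromosome was 807 kb, and 34 of 1510 gaps were 10 kb or less. The closest pair was on chromosome 17, where peaks from 55253634 to 55254028 (77.66) and from 55254074 to 55254501 (93.75) were 45 bp apart. A pair on chromosome 13, from 56331842 to 56332266 (111.81) and from 56332318 to 56332641 (103.29), was 51 bp apart. No run of 3 or more with gaps of at most 10 kb was found (0 of 1530 peaks), against 2.69% of the TKO DAXX peaks, 5.79% of the WT DAXX peaks and 45.6% of the TKO IgG peaks in such runs. In the lists most like them the share was also low, at 0.972% of the WT ATRX peaks and 10 of 1650 TKO ATRX peaks (0.606%). The rule takes peaks out of the TKO ATRX list and so breaks its runs, and the 0 follows in part from the rule. No limit is given for this 0, since the peaks of a run do not count independently. With gaps of up to 50 kb there were 8 runs with 27 peaks (1.76%, 1.17 to 2.56).

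The densest group lay on chromosome 10 near 84.6 Mb. It held 6 TKO-only peaks within 203 kb, from 84503501 to 84706417, and 0 peaks of any other list, IgG included. The first, from 84503501 to 84503915, scored 108.42. The others started at 84600450 (score 70.72), 84649974 (79.13), 84660294 (73.77), 84664102 (72.25) and 84706122 (71.83) and were 273 to 471 bp wide. These 5 formed the longest run with gaps of up to 50 kb, spanning 106 kb. The nearest TKO DAXX peak was 315 kb from the first peak of the group, and the nearest WT ATRX peak was 2263 kb from it. All but the first scored under 80, close to the authors' threshold, so 1 peak of the group is left at a score of 100 or more.

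The other dense windows, with at least 4 TKO-only peaks within 250 kb, differed in their surroundings. This window was set after the data were seen. On chromosome 17 one group of 5 lay from 21082236 to 21355895 (scores 83.03 to 105.58) and one of 4 from 84759830 to 84931721 (87.26 to 113.95), both with 0 peaks of any other list between them. On chromosome 2 a group of 5 from 176705798 to 176957085 (75.25 to 172.75) held 1 TKO IgG peak. On chromosome 4 a group of 6 from 145021566 to 145425613 (77.6 to 133.1) stood among 24 TKO IgG, 5 WT IgG, 2 WT ATRX and 2 WT DAXX peaks, and a group of 4 from 146427734 to 146643522 (71.78 to 142.64) among 17 TKO IgG, 5 WT IgG and 1 WT DAXX peak. On chromosome 6 a group of 4 from 118018596 to 118266945 (71.96 to 94.62) held 1 peak each of WT ATRX, WT DAXX and TKO DAXX.

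**Figure D5:**
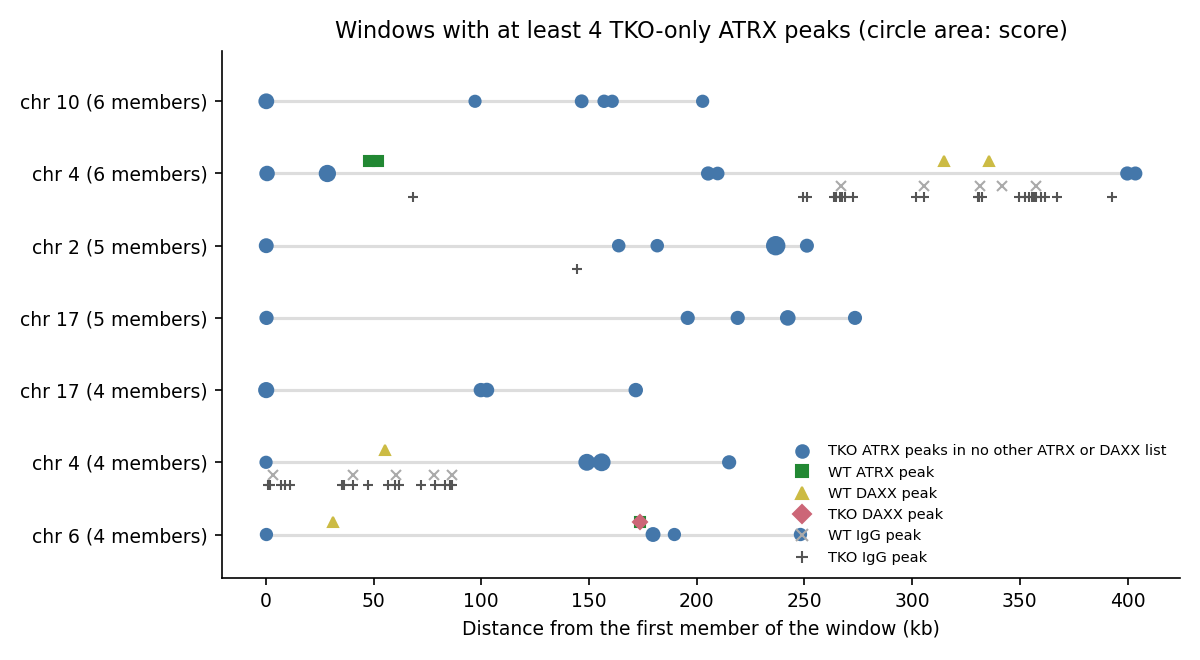
The 7 windows with at least 4 TKO-only ATRX peaks within 250 kb, by distance (kb) from the first peak of each; circles are TKO-only ATRX peaks with area in proportion to score, and other symbols are peaks of the other lists. The chromosome 10 window and both chromosome 17 windows hold no other peak, while the 2 chromosome 4 windows hold 24 and 17 TKO IgG peaks.

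Chromosome 4 between 140 and 150 Mb was the richest 10 Mb interval. It held 27 TKO-only ATRX peaks (1.76%, 1.17 to 2.56), and the next intervals held 16 each, on chromosomes 5, 6, 13 and 17. The same interval held 166 of 1057 TKO IgG peaks (15.7%) and 48 of 402 WT IgG peaks (11.9%). It also held 13 WT ATRX (0.903%), 16 WT DAXX (2.81%, 1.61 to 4.52) and 6 TKO DAXX peaks (0.293%). Of all TKO ATRX peaks it held 1.64%. The WT DAXX share was thus above that of the TKO-only peaks, with intervals that overlap. An IgG peak lay within 50 kb of 13 of these 27 peaks (48.1%, 28.7 to 68.1) and of 43 of the other 1503 (2.86%, 2.08 to 3.83). The part of IgG background in this number was not tested. All 27 TKO ATRX peaks of the interval were TKO-only, which is near the 92.7% that the rule kept of all TKO ATRX peaks.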

How the data were processed

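Peak lists of 6 libraries were used, 1 per combination of cell line and antibody, grouped by sample title. The build mm9 and the tools Bowtie2 and Picard appear, per the submitters' processing notes, with no version or role. Per the file contents, peaks carry MACS names or MACS table columns. Version, settings and control of the caller were not given in the sources used here. Each score in the ATRX and DAXX lists is the authors' deposited value, and its scale was inferred from the headers of the IgG tables. Per the file headers, the deposited IgG tables also give a tag count and a fold enrichment (a ratio to the caller's background) per peak. Scores began at 50.02 for WT DAXX, at 60.1 and 60.02 for the IgG tables, and at 70 or 70.01 elsewhere.

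BED starts were changed to count from 1. Overlaps, gaps and runs were computed with pandas 2.3.3 and numpy 2.4.6 under Python 3.11.15, tested on simulated intervals, and checked against bedtools 2.31.1, which kept the same number of peaks, 1530. Shares carry exact (Clopper-Pearson) 95% intervals from scipy 1.17.1 and medians carry binomial order-statistic intervals. These cover counting over peaks only. A count of 0 was given the limit of 3 counts. With 1 library per group no test was made. Alternatives were other overlap, score, gap and distance settings and other sets of lists.

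Regions named are the 15 highest-scoring TKO-only peaks without IgG overlap, the 5 widest, those overlapping IgG, the densest groups and those nearest the limits of the rule. No run met the 10 kb rule for groups, so runs at 50 kb were named. The short peaks, close pairs, close neighbours, 250 kb windows and 10 Mb intervals were chosen after their values were seen. The TKO-only peaks and all lists were chosen with earlier results of these data known. Genes and DNA sequence at the peaks were not analysed here, since the gene table at hand is of another build.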

Additional observations from a re-analysis of the deposited data

How the results depend on the processing

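Of 46 recomputed values, 32 stayed within their interval or within 1.5 times the count. The number of TKO-only peaks was 250 with all lists cut at a score of 100 and 744 with the upper 50% of each list, mostly because fewer TKO ATRX peaks entered. Of the main 1530, 226 scored 100 or more, so part of the 250 entered because overlapping peaks of the other lists were cut. The number of TKO-only peaks was 1509 when peaks within 1 kb also removed a peak and 1526 when IgG peaks did, and a common score of 70 gave 1532. Requiring an overlap of 50% of the shorter peak left it at 1530. Median width rose to 409 bp at a score of 100 or more. Overlap with IgG was 0% there and 0.523% within 1 kb of an IgG peak. With gaps of up to 50 kb, 8 runs held 1.76% of the peaks. The share within reach of another list was 2.88% at 5 kb and 20.7% at 50 kb. With the WT lists alone there was 1 run at 10 kb and the share within 10 kb was 3.08%, without WT ATRX the share was 4.43%, and with WT DAXX alone there were 2 runs with 0.367% of the peaks and the share was 0.795%. The sets of lists, the common score and the checks of chromosome 6 were chosen after the data were seen. The planned checks of sequence features and gene position were not run, for lack of a genome of the files' build. Without read depth, absence from a list has no detection limit.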

Other observations

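Some TKO-only ATRX peaks on the same chromosome were equal in width and score, and a few of these pairs also had a peak of another list at matching distances. Of 27 such pairs, 3 had a peak of another list at the same distance from both members, within 10 bp. On chromosome 4 the peaks from 145882379 to 145882552 and from 146427734 to 146427907 were 545 kb apart, both 174 bp wide with a score of 71.78. Both lay 61 bp from a TKO IgG peak and 1249 bp from a WT IgG peak, and their distances to the nearest WT ATRX peak were 26945 and 26944 bp, and to the nearest TKO DAXX peak 158899 and 704254 bp. On chromosome 12 the peaks from 23623273 to 23623632 and from 23889858 to 23890217 were both 360 bp wide with a score of 80.64, and each lay 36917 bp from a TKO IgG peak and 63011 bp from a WT IgG peak. Their distances to the ATRX and DAXX lists differed, at 200772 and 467357 bp for WT ATRX, 283586 and 550171 bp for WT DAXX, and 742755 and 1009340 bp for TKO DAXX. On chromosome 2 the peaks from 175461454 to 175461822 and from 176705798 to 176706166 were both 369 bp wide with a score of 94.81 and lay 56103 and 56101 bp from a TKO IgG peak, while their distances to the 4 remaining lists differed. Sequence was not analysed here, so whether the members of a pair are separate regions was not tested. A further pair with equal width and score lay in the dense group on chromosome 17, from 21277955 to 21278199 and from 21301167 to 21301411 (245 bp, 84.21), 23.2 kb apart.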
